A study of Mus musculus with 6 samples.

Results

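Myoepithelial cells of the mouse submandibular gland were described here from 1 droplet single-cell RNA library of sorted basal epithelium. A cell was taken as a member when its barcode held at least 500 detected genes, at most 20% mitochondrial UMIs, at least 10 UMIs of Acta2, at least 2 UMIs of Myh11, Cnn1 and Mylk together and at least 1 UMI of Krt14. A UMI (unique molecular identifier) marks 1 captured RNA molecule. The rule found 248 members among the 4418 passing cells of that library, a share of 5.61% (exact 95% interval 4.95 to 6.33%, counting error only), and among 11140 passing cells in the 3 libraries of the series. They were set against 3154 basal duct cells of the same matrix, taken by at least 2 UMIs of Krt5, at least 5 of Krt14 and fewer than 10 of Acta2, Tagln, Myh11 and Cnn1 together. Both classes were thus chosen on measured RNA, so the levels of the 7 gate genes are given as descriptions with no test.

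The glands came from wild-type female C57BL/6J mice. Their age label, 8 to 10 weeks, is the same for all 3 libraries, also for the mice sampled 90 days after irradiation, and whether it means the age at irradiation or at collection is not stated in the sources used here. The basal sort kept untreated cells positive for the epithelial adhesion molecule Epcam and high for Cd49f, the integrin alpha 6 chain that Itga6 encodes, and it discarded cells stained for Cd3, Cd16/Cd32, Cd31 or Cd45 as well as dead cells. Cells of 3 mice were marked with 1 hashtag antibody each and pooled. The other 2 libraries held all Epcam-positive cells, from untreated mice in one and from glands taken 90 days after a 30 Gy dose to the left gland in the other, and they were used here to count cells that passed the same rule and to give the Pcp4 and Igfbp2 UMIs of those cells.

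Myoepithelial cells are branched, contractile cells of glandular epithelium that lie between the secretory cells and the basement membrane. They carry the actin and myosin apparatus of smooth muscle together with the keratins of basal epithelium, and their contraction on nerve stimulation helps to press saliva into the ducts. Smooth muscle contraction is set by calcium, which through calmodulin activates the myosin light chain kinase that Mylk encodes, and is relaxed by myosin phosphatase. Basal duct cells rest on the same basement membrane in the larger ducts and share Krt5 and Krt14 with myoepithelial cells.

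The basal sort matrix held 5044 barcodes and 59207148 UMIs, and the other libraries held 8277 and 3319 barcodes. Between 1 and 15 barcodes were shared by a pair of libraries. Hashtags assigned 210 members to mouse 1, 2 or 3, while 13 members were hashtag doublets and 25 had no call. A member held a median of 9733.5 UMIs and 2879 genes, against 14194.5 UMIs and 3010 genes for a basal duct cell, and the median mitochondrial share was 5.02% against 4.78%. A larger part of the basal duct cells had no hashtag call (20.9%) than of the members (10.1%). Unless another measure is named, each level below is given in CPM. This is the UMIs of a gene summed over the cells of 1 class of 1 mouse, scaled to 1000000 UMIs of that sum with TMM factors. The 3 values always follow mice 1, 2 and 3, whose member sums held 1227692, 280767 and 689852 UMIs, so that mouse 2, with 28 members, gave the least precise values.

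Members made up 8.92%, 3.35% and 6.30% of the hashtag singlets of the 3 mice, which is 115 of 1289, 28 of 837 and 67 of 1063 cells (mean 6.19% ± 2.79, SD, n = 3). The share was thus lowest in mouse 2 and highest in mouse 1. It is a share of cells that had passed an Epcam and Cd49f gate and says nothing of the share in the gland.

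The genes of the rule separated the classes widely, apart from the keratins. Acta2, smooth muscle actin (chromosome 19, 34240336 to 34255585, GRCm38.p6), was at 7881, 7295 and 7809 CPM in members and at 9.46, 7.65 and 7.86 CPM in basal duct cells. Tagln, the actin-binding protein transgelin, was at 3559.9, 2881 and 3638 CPM in members and 2.29, 5.63 and 5.43 CPM in basal duct cells. Myh11, the smooth muscle myosin heavy chain, was at 916, 796 and 744 CPM against 1.22, 0.577 and 0.749 CPM. Each of these 3 genes was far lower in every basal duct sum, a gap that the limit on these genes in the basal duct gate fixes in part. Mylk, which only the myoepithelial gate used, was at 1344, 1219 and 1191 CPM in members and still measured in basal duct cells at 49.95, 61.6 and 48.8 CPM. Krt14 overlapped between the classes, with 5806, 4402 and 5743 CPM in members and 4754, 4014 and 5183 CPM in basal duct cells, and Krt5 was lower in members in every mouse, at 531, 613 and 578 against 702, 694 and 759 CPM. The Krt14 values in CPM thus overlapped between the classes, while no Krt5 value in CPM did. The direction of Krt5 depended on the measure, however. Per 10000 UMIs of a cell, without TMM factors, the median Krt5 level was 6.07 in the 248 members and 5.89 in the 3154 basal duct cells. Only the basal duct gate required Krt5, at least 2 UMIs per cell, and the part of this limit in the Krt5 values was not tested.

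Markers that the rule did not read are given without a test too, since they were chosen on these cells. Pcp4, a small protein that binds calmodulin (chromosome 16, 96467606 to 96525793), was at 1832, 1448 and 1553 CPM in members and at 4.802, 0.577 and 0.936 CPM in basal duct cells. Igfbp2, a secreted binding protein for insulin-like growth factors (chromosome 1, 72824480 to 72852474), was at 1184, 543 and 1204 CPM against 85.9, 74.3 and 90.5 CPM. The lowest member value of both genes lay above the highest basal duct value, and mouse 2 stood below the other two mice for Igfbp2. Oxtr, the oxytocin receptor of contractile epithelium in the breast, was on the marker list but had 0 UMIs in members and 1 in basal duct cells.

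**Figure D1:**
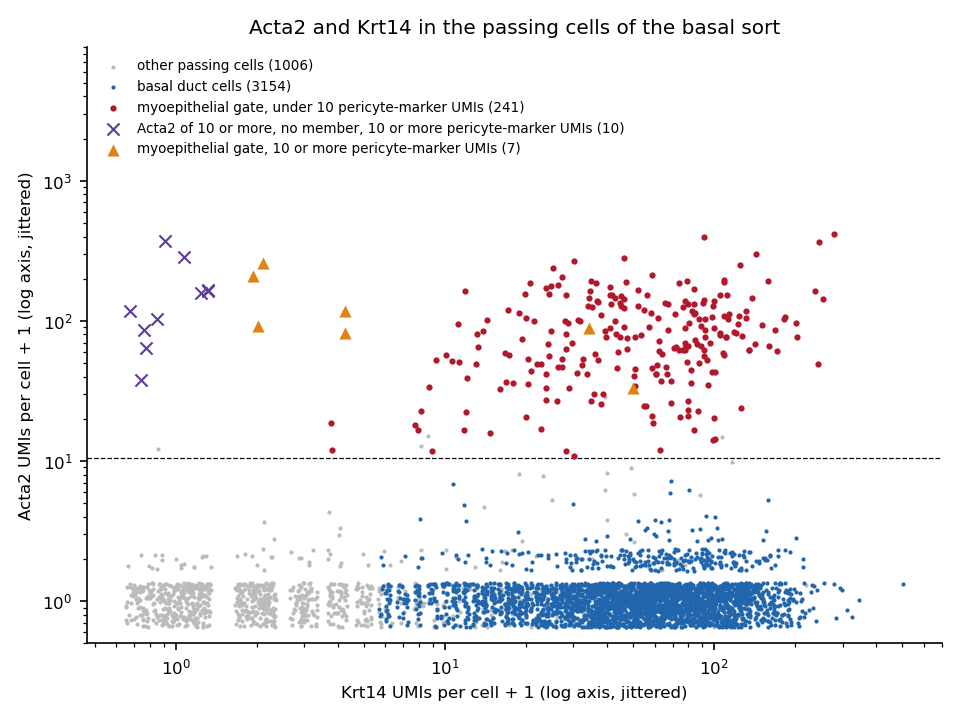
Acta2 UMIs (vertical) against Krt14 UMIs (horizontal) for the 4418 passing cells of the basal sort, each plus 1 on log axes with jitter; the dashed line is the Acta2 limit. Members form a cloud of high Acta2 at Krt14 levels shared with the 3154 basal duct cells, and the 10 non-member crosses and most of the 7 triangles, which hold at least 10 UMIs of pericyte markers, lie at low Krt14.

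**Figure D2:**
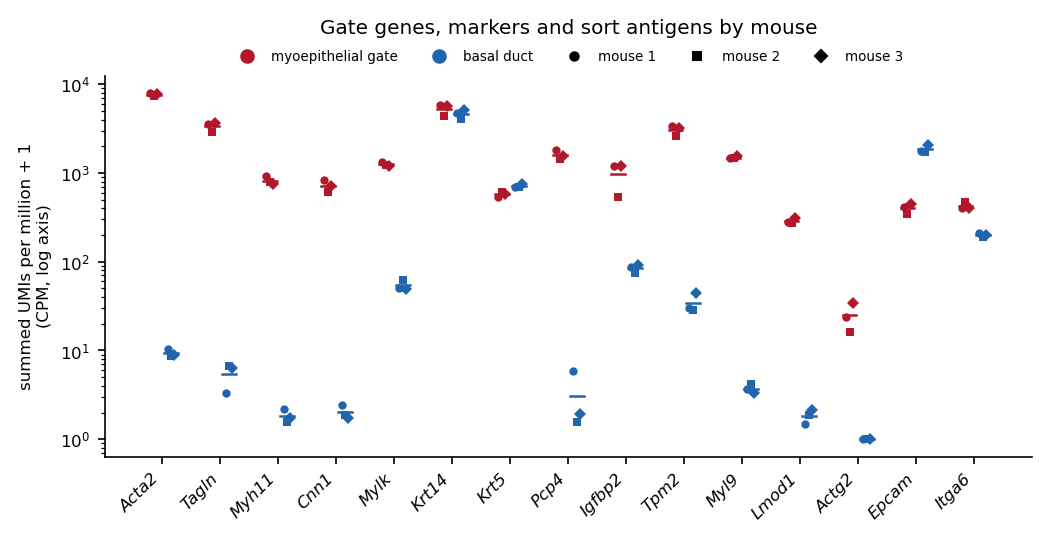
Summed UMIs in CPM plus 1 (log axis) of gate genes, markers and sort antigens, 1 point per mouse and class, with the mean of 3 mice as a bar. The contractile genes lie far apart between members and basal duct cells, Krt14 overlaps and Epcam is lower in members in all 3 mice.

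Cells with Acta2 UMIs were not spread evenly. Of the passing cells, 3802 had no Acta2 UMI, 341 had 1 to 4, only 12 had 5 to 9 and 20 had 10 to 19, while 89 had 50 to 99. The 16 members just inside the limit, with 10 to 19 Acta2 UMIs, had a median of 24.5 Krt14 UMIs and 6834 UMIs in all, and 14 of the 16 had a Pcp4 UMI. The 12 cells just outside, with 5 to 9, had a median of 48.5 Krt14 UMIs and 6747.5 in all, and 9 of the 12 had a Pcp4 UMI. Cells on both sides of the limit were shallower than the median member, and Pcp4 was common on both sides.

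Among the members, 7 carried RNA of the markers of another contractile cell type. Pericytes and vascular smooth muscle cells wrap small vessels and also hold Acta2, Myh11 and Cnn1, and the 7 cells had 16 to 202 UMIs of 10 pericyte markers, where the other 241 members had at most 3. They held a median of 3 Krt14 UMIs (range 1 to 49) against 55 in the others. Pcp4 was at 0 in all 7 and had a UMI in 238 of the 241. Des, the muscle intermediate filament desmin, was found in each of the 7 cells with 104 UMIs together and in none of the 241. By hashtag, 0, 1 and 2 of the 7 belonged to mice 1, 2 and 3 and 4 had no call. A further 10 passing cells of this kind had at least 10 Acta2 UMIs and failed the rule, all with 0 Krt14 UMIs. The rule as given keeps the 7 cells, and the 3 of them with a mouse call enter the sums. Values without them are given for genes called higher of whose summed UMIs they held more than 20%, and where they moved a fold change by over 1.5 times or ended a test.

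Markers of other cell types were measured in members to different degrees. Of the endothelial markers, Cdh5, Cldn5, Emcn, Tek and Egfl7 had 0 UMIs in members, and the sum over the 10 markers was 3.59 to 28.4 CPM in members against 7.65 to 23.4 CPM in basal duct cells. Of the immune markers, Ptprc, Csf1r, C1qa, C1qb, Tyrobp and Fcer1g had 0 UMIs, although Lyz2, the lysozyme of macrophages and of some epithelia, was at 53.2, 67.1 and 47.8 CPM and made up most of the list sum of 59.7, 70.1 and 53.02 CPM, against 6.88, 6.49 and 8.52 CPM in basal duct cells. Of the fibroblast markers, Col1a1, Lum, Pdgfra and Dpt had 0 UMIs, Col1a2 had 43 UMIs in members and 0 in basal duct cells, and Dcn did not pass the test between the classes (2733 against 2920.2 CPM). The fibroblast list, with Dcn and the actin-severing protein Gsn (799 against 88.2 CPM, called higher) as its most abundant genes, summed to 3534, 3405 and 3719 CPM in members and 3666, 2395 and 2964 CPM in basal duct cells. The 8 acinar markers, products of saliva-making cells, summed to 94.5 to 134 CPM in members and 30.3 to 41.0 CPM in basal duct cells. All 6 that were tested were called higher in members, 3 of them without overlap. The calls of Car6, Scgb2b26 and Pip were lost without mouse 1 and with DESeq2. Aqp5 was no longer tested without mouse 1, and Bhlha15 and Bpifa2 had 0 UMIs. The 18 pericyte and vascular smooth muscle markers, which include the gate gene Cnn1, summed to 984, 1420.5 and 1029 CPM in members, to 984, 796 and 874 CPM in members without the 7 cells, and to 49.6, 43.6 and 45.8 CPM in basal duct cells. The 7 granular duct markers summed to 344, 204 and 484 CPM in members and 34.6, 79.4 and 41.3 CPM in basal duct cells. Of these, 4 were tested, of which 1 was higher in members, while Klk1b9, Klk1b26 and Crisp3 did not pass the test; Egf and Ren1 had 0 UMIs. The 7 Schwann cell markers summed to 86.97, 109.7 and 81.5 CPM against 48.7, 46.7 and 39.97 CPM, with Sox10 the most abundant in members; 2 of 4 tested were higher and 2 lower, Mbp among the latter, and S100b and Cdh19 had 0 UMIs. The part of such RNA in the results below was not tested, beyond the values without the 7 cells.

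The sort antigens differed in opposite directions at the RNA level. Epcam was at 411, 344 and 451 CPM in members and 1752, 1718 and 2068 CPM in basal duct cells, a log2 fold change of −2.19 ± 0.08 (SE; adjusted p = 2.1e-19). Itga6 was at 404, 476 and 399.6 CPM against 210.5, 187 and 197 CPM (1.09 ± 0.11, adjusted p = 6.4e-10). All 3 mice showed both directions without overlap, so members held less RNA of the protein by which the sort chose epithelium and more of the protein by which it chose basal cells. Cells too low in Epcam protein to pass the gate were not sequenced here.

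The classes were compared over the 3 mice with edgeR's quasi-likelihood test on summed UMIs, with the mouse as a block. The gates split the cells on their RNA, so an adjusted p describes how steadily the 2 gated populations differed over mice. Of 10947 tested genes, 2759 (25.2%) were higher in members and 3000 (27.4%) lower, 52.6% in all, and the median log2 fold change over all tested genes was −0.021. More than 4-fold differences were found in 725 genes that were higher and 716 that were lower. The split between directions rested on the scaling. With plain library size in place of TMM every fold change moved up by 0.38 on the log2 scale at the median, and 4153 genes were higher and 1875 lower, so that the higher genes were 68.9% of those called instead of 47.9%. Small differences are therefore read relative to the median of all genes.

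Changes were ranked among genes with a mean of at least 20 CPM and no overlap between the classes. The genes with the largest increase in this ranking had few UMIs in basal duct cells. Fgf7, a growth factor for epithelium that is usually made by fibroblasts (chromosome 2, 126034658 to 126091185), was at 167, 143 and 175 CPM in members and 0.0717, 0 and 0.281 CPM in basal duct cells (10.11 ± 0.28, adjusted p = 3e-22; 11.14 without mouse 3). Sfrp1, a secreted inhibitor of Wnt signalling (chromosome 8, 23411383 to 23449632), was at 167, 140.2 and 141 CPM against 0.358, 0.289 and 0.374 CPM (8.68 ± 0.24, adjusted p = 3.8e-22). Ecrg4, a secreted peptide precursor, was at 1733, 1429.7 and 1494 CPM against 6.23, 2.02 and 3.37 CPM (8.59 ± 0.15, adjusted p = 7.3e-27). The member values of these 3 genes differed little over mice, and every basal duct value was far below them. The tetraspanin Tspan2 (360.1, 351 and 296 CPM, log2 fold change 9.95) had the same pattern. So did the secreted protein Ism1 (194, 238 and 178 CPM, 9.2; 11.23 without mouse 1), the dipeptidase Dpep1 (65.4, 107 and 99.6 CPM, 8.66; 9.50 without mouse 1), the lipocalin Apod (124, 82.3 and 63.4 CPM, 8.59) and the transcription factor Osr1 (178, 210.3 and 155 CPM, 8.58; 9.80 without mouse 1). Rgs5, a regulator of G protein signalling, had the largest fitted value (10.42) but stood at 2.87, 415 and 80.2 CPM in members, with 97.2% of its UMIs in the 7 cells of pericyte markers. Without those cells it was no longer tested.

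In the same ranking, the genes with the largest decrease included a claudin, surface and envelope proteins of keratinocytes and a cytokine. Genes with a mean under 20 CPM were left out of it. Among them Lef1, Inhba and Tnc fell further by pooled UMIs and are given with their lists below. Cldn1, a tight junction claudin (chromosome 16, 26356645 to 26371839), was at 2.16, 3.05 and 6.47 CPM in members and 104, 127 and 198 CPM in basal duct cells (−5.23 ± 0.26, adjusted p = 1.6e-16). Ly6d, a surface protein of keratinocytes, was at 89.1, 97.5 and 75 CPM against 1449, 1682 and 1601 CPM (−4.17 ± 0.11, adjusted p = 2.2e-23). Sprr1a, a protein of the cornified envelope, was at 1.44, 18.3 and 5.17 CPM against 127, 118 and 159 CPM (−5.64 to −3.97 when mouse 2 or mouse 1 was left out, −4.77 with all). The values of Cldn1, Ly6d and Sprr1a did not overlap between the classes. Wfdc2, a secreted protease inhibitor of duct epithelium, fell by 4.57 on the log2 scale, to 38.1, 18.3 and 19.4 CPM from 612, 633 and 794 CPM (−5.28 without mouse 1). The cytokine Lif had 3 UMIs in members and 1399 in basal duct cells and was 36.8-fold lower (95% counting interval 12.6 to 179). The interleukin 18 receptor chain Il18r1 (−4.91), the wound keratin Krt6a (−4.35), the protease-activated receptor F2rl1 (−4.32), the interferon-inducible Ifi202b (−4.23; −4.91 without mouse 3), the guidance receptor Robo2 (−4.26), the endothelin precursor Edn1 (−4.07; −5.10 without mouse 3) and the Wnt deacylase Notum (−4.11; −10.43 without mouse 1, since the other mice had 0 UMIs) completed the 12 largest decreases of this ranking.

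**Figure D3:**
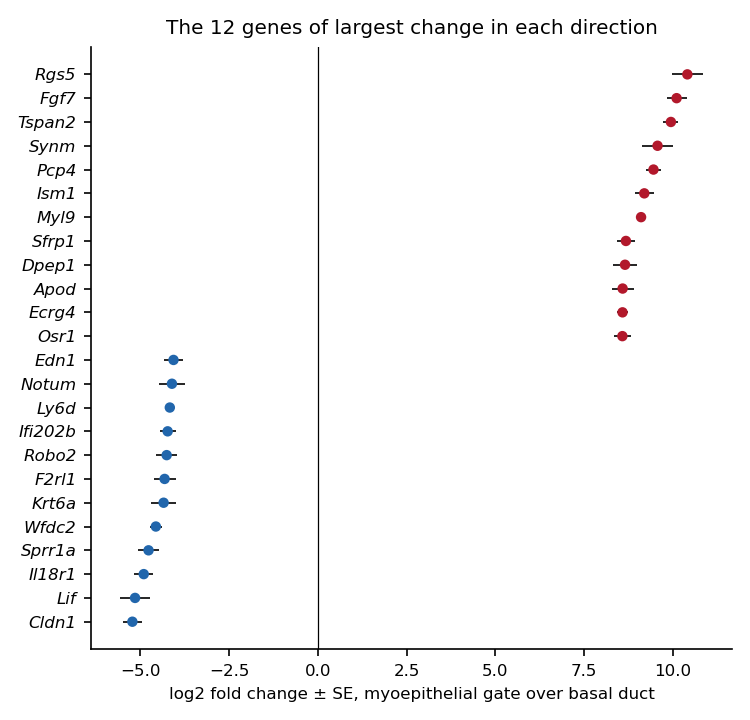
Log2 fold change (horizontal, points with SE as lines) of the 12 genes in each direction with the largest differences between members and basal duct cells over 3 mice. Genes were ranked among those with a mean of at least 20 CPM and no overlap between the classes. Increases run from 8.58 to 10.42 and decreases from −5.23 to −4.07. Rgs5 rests mostly on the 3 cells with a mouse call among the 7 with pericyte markers. Synm, Pcp4 and Myl9 belong to the programme or markers of the gate.

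Most genes of smooth muscle structure outside the rule were higher in members as well. Of the 28 genes of smooth muscle structure, 25 passed the filter on low counts. In 20 of these every member value lay above every basal duct value, and in 2 every one lay below, where 28.2% and 31.5% of all tested genes did so. The list is the programme the gate was made on, so it is given as values without p. The median log2 fold change was 1.87.

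Thin-filament and myosin genes differed widely. Myl9, the regulatory light chain of smooth muscle myosin that Mylk phosphorylates, was at 1463, 1466 and 1544 CPM in members and 2.65, 3.17 and 2.34 CPM in basal duct cells. Tpm2, the tropomyosin that winds along the thin filament, was at 3356, 2625 and 3242 CPM against 28.9, 27.3 and 43.9 CPM. Myl6, a light chain found in most cells, was at 3690.03, 3545 and 4002 CPM against 939, 1011 and 1143 CPM. The gap was narrowest for Myl6 and widest for Myl9, with no overlap for any of the 3. Lmod1, which nucleates actin filaments in smooth muscle, averaged 287 against 0.8302 CPM, and the linker of focal adhesions Tns1 329.7 against 15.3 CPM. Cald1, which encodes caldesmon, averaged 774 against 102 CPM, Csrp1 1353 against 417 CPM and the broadly expressed tropomyosin Tpm1 1398 against 886 CPM. The intermediate filament gene Synm had 163 UMIs in members and 2 in basal duct cells. Actg2, the second smooth muscle actin, was at 23, 15.2 and 33.6 CPM in members and had 0 UMIs in basal duct cells, which puts it at least 266-fold higher when basal duct cells are set at the limit that a count of 0 allows, 3 UMIs over the group. The list also held genes that went the other way. Tpm4, a tropomyosin of non-muscle cells, averaged 208 against 459.8 CPM, and Csrp2 18.1 against 76.2 CPM, while Vcl, which encodes vinculin, stood level at 171 against 172 CPM. All Des UMIs of the members came from the 7 cells with pericyte markers.

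Many smooth muscle promoters hold the CArG box, the site bound by serum response factor, in which CC and GG flank 6 bases that are each A or T. Windows of 300 bases around gene starts, from 250 before to 50 after, were taken from RefSeq (GRCm38.p6) and searched on both strands for the CArG box and for GGAATG, the core of TEAD factor sites. Both motifs overlapped in 6 of 32851 windows. Of the 28 genes of smooth muscle structure, 24 had a window, and 7 of them (29.2%) held a CArG box against 1.81% of 27025 genes and 1.63% of all windows. GGAATG was found in 9 of the 24 (37.5%) against 16.6% of genes. The 7 genes were Myl9, Myl6, Fhl1, Vcl, Filip1l, Ldb3 and Acta1, of which only Myl9, Myl6 and Fhl1 were higher in members without overlap. Of the contractile gate genes Acta2, Cnn1 and Mylk were matched and none of their windows held a CArG box, which says only that these letters were not in this stretch; Tagln and Myh11 were not matched. A looser motif, chosen after the sequences were seen, allowed exactly 1 G or C among the 6 inner bases. It was found in 9.69% of all genes, in 5 of the 24 genes of the list (20.8%) and in Acta2, whose window held it at 2 places. Windows with 2 or more places were found for 0.766% of genes. The 200 bases before the start of 3 genes of the list and of Acta2 are shown here. Each stretch holds a motif and belongs to a gene that was higher in members without overlap. Fhl1 was low, at 6.47, 9.91 and 9.39 CPM in members without the 7 cells of pericyte markers. Capitals mark the CArG box and, in Acta2, the looser motif. Myl9 lies at chr2:156775264-156775463 on the plus strand, and its box begins 161 bases before the start. Myl6 lies at chr10:128493010-128493209 on the minus strand, with the box 50 bases before the start in 1 of its 2 windows. Fhl1, a LIM domain protein of muscle, lies at chrX:56779483-56779682 on the plus strand, with the box 102 bases before the start in 1 of 2 windows. Bases are counted from the start on which each window was built, which for Acta2 is 34255373 and lies inside the gene span given above. Acta2 lies at chr19:34255374-34255573 on the minus strand, and its motifs begin 84 and 34 bases before the start.
Myl9: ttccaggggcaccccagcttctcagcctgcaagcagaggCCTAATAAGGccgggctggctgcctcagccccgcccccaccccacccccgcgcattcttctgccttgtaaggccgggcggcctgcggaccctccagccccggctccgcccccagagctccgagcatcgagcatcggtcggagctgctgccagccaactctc
Myl6: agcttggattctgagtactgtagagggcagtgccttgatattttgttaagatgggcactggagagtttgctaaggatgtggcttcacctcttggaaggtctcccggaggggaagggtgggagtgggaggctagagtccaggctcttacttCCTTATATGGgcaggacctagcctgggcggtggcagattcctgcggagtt
Fhl1: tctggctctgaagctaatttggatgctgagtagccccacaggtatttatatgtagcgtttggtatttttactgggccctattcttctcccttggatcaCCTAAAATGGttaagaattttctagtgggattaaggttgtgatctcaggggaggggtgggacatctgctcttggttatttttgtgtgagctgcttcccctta
Acta2: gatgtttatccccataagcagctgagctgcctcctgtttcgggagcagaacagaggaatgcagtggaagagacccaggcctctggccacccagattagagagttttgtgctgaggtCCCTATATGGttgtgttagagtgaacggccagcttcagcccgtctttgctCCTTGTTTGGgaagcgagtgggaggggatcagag

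The receptors, channels and kinases that control contraction were also mostly higher in members. Of 24 tested genes of this list, 17 were higher and 4 lower (70.8% and 16.7%, against 25.2% and 27.4% of all tested genes), with a median log2 fold change of 2.09. The count of lower genes was 2 without mouse 3 and with DESeq2 and 1 with library size scaling. Without the 7 cells of pericyte markers the counts were 14 and 4 of 21, with a median of 1.82, since Rgs5, Gucy1b1 and Cacna1c were no longer tested.

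Genes of myosin phosphatase and calcium handling were among those that were higher. Ppp1r12a, the subunit that targets the phosphatase to myosin, was at 592, 549 and 484 CPM in members and 119.8, 107 and 114 CPM in basal duct cells (2.24 ± 0.1, adjusted p = 4.1e-17). Its paralog Ppp1r12b (3.2 ± 0.18) and Ppp1r14a, an inhibitor of the same phosphatase (4.85 ± 0.32), were higher too. Atp2a2, the pump that returns calcium to the endoplasmic reticulum, was at 425, 363 and 484 CPM against 78.7, 69.8 and 82.8 CPM (2.46 ± 0.11, adjusted p = 1.4e-17), and the release channel Itpr1 differed by 2.21 ± 0.16. No value of Ppp1r12a or Atp2a2 overlapped between the classes.

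Genes of the cyclic GMP arm, which relaxes smooth muscle, were also higher. Prkg1, the kinase of this arm, was at 53.2, 67.1 and 46.6 CPM in members against 0.215, 0 and 0.187 CPM (8.23 ± 0.42). Gucy1a1, a subunit of the nitric oxide receptor, was at 17.97, 33.5 and 25.9 CPM and had 0 UMIs in basal duct cells, at least 236-fold higher. Without the 7 cells of pericyte markers, which held 36.0% of the Gucy1a1 UMIs of all members, it was at 17.97, 16.5 and 18.8 CPM and at least 189.8-fold higher, and 43 of the other 241 members had a UMI. Kcnmb1, a subunit of the calcium-gated potassium channel, likewise had 0 UMIs in basal duct cells and was at least 88.6-fold higher.

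Among receptors, muscarinic Chrm1, which responds to the acetylcholine of salivary nerves, had 24 UMIs in members and 3 in basal duct cells, 101-fold higher (95% counting interval 30.8 to 526). Chrm3, the main muscarinic receptor of salivary acini, differed by 0.8 ± 0.25, a call lost without mouse 1 and with DESeq2. The endothelin receptor Ednra differed by 2.81 ± 0.46, or by 2.7 without the 7 cells of pericyte markers. The purine receptor P2ry1 (−1.37 ± 0.44) was called lower in members, but not without mouse 3, with DESeq2, with library size scaling or with an Acta2 limit of 5. The potassium channel Kcnma1 (−0.55 ± 0.23) was called lower too, a call that 8 of 15 alternatives lost, among them those without mouse 1 and without mouse 2. The kinase Rock2 was called lower (−0.35 ± 0.12), but the call was lost without mouse 3 and the value was 0.028 with library size scaling. Rhoa, which activates it, did not pass the test (329 against 357 CPM). Avpr1a and Pln had 0 UMIs in members.

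Serum response factor turns on contractile genes together with the cofactors myocardin and the MRTF proteins, and YAP acts through TEAD factors when cells are stretched. Of 13 tested regulators 6 were higher and 3 lower (46.2% and 23.1%, against 25.2% and 27.4% of all tested genes; median 0.21). Mef2c, a muscle transcription factor, was at 112, 177 and 150.002 CPM in members and 1.72, 0.144 and 0.187 CPM in basal duct cells (7.33 ± 0.32, adjusted p = 8e-18; 9.66 without mouse 1), and 10.8% of its member UMIs lay in the 7 cells of pericyte markers. No member value of Mef2c overlapped. The MRTF genes Mrtfa (1.33 ± 0.39) and Mrtfb (0.79 ± 0.29), Tead3 (1.65 ± 0.26), Mef2a (1.12 ± 0.13) and Yap1 (0.5 ± 0.13, call lost with the hashtag share rule) were higher by less. The call of Mrtfa was lost without mouse 3 and with DESeq2, and that of Mrtfb under 7 of 15 alternatives, among them those without mouse 2 and without mouse 3. Srf itself did not pass the test (22.5 against 26.9 CPM, adjusted p = 0.15), and Myocd, the gene of myocardin, had 0 UMIs in the summed members. Tead2 had 2 UMIs in members (1 without the 7 cells of pericyte markers) and 564 in basal duct cells, 22.3-fold lower (95% counting interval 6.14 to 184). Gata6 was lower as well, and Mef2d was called lower (−0.65 ± 0.18) except without mouse 1, with library size scaling or with the hashtag share rule. The 11 tested targets of YAP split, with 5 higher and 2 lower (45.5% and 18.2%, against 25.2% and 27.4% of all tested genes), or 3 higher with the hashtag share rule. Ccn2, a matrix-associated signal protein, was at 472, 494 and 649 CPM against 126, 180.2 and 212 CPM (1.67 ± 0.1), while its relative Ccn1 was at 878, 1292 and 1514 CPM against 2173, 2321 and 3189.7 CPM (−1.08 ± 0.08). These 2 well-known targets thus differed in opposite directions, each in all 3 mice. The receptor kinase Axl differed by 3.15 ± 0.17, and Thbs1, a matrix glycoprotein, by 0.45 ± 0.12, which was 0.19 (adjusted p = 0.27) without mouse 1 and also lost its call with DESeq2 and with the hashtag share rule.

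Matrix genes were higher in members more often than lower. Of 23 tested genes of basement membrane and matrix, 16 were higher and 3 lower (69.6% and 13%, against 25.2% and 27.4% of all tested genes), with a median of 1.24. Sparc, a collagen-binding glycoprotein of basement membranes, was at 2049, 1975 and 1756 CPM in members and 226, 295 and 286 CPM in basal duct cells (2.85 ± 0.09, adjusted p = 1.1e-20). Col4a1, a chain of the type IV collagen that forms the basement membrane network, was at 404, 378 and 397 CPM against 108, 127 and 121 CPM (1.74 ± 0.11, adjusted p = 3.6e-14), and Col4a2 differed by 2.18 ± 0.14. Sparc and both collagen chains were higher in every mouse without overlap. Postn, a matricellular protein, was at 286, 171 and 246 CPM in members and about 1 CPM in basal duct cells (7.89 ± 0.19). The inhibitors of matrix proteases Timp2 (2.4 ± 0.11) and Timp3 (1.94 ± 0.1), the proteoglycan Hspg2, which encodes perlecan (1.88 ± 0.21), and the collagen chaperone Serpinh1 (0.77 ± 0.11) were higher. The 3 lower genes were the nidogens, which link laminin to collagen, and tenascin C. Nid1 was lower (−3.04 ± 0.44), Nid2 had 1 UMI in members (0 without the 7 cells of pericyte markers) and 283 in basal duct cells, and Tnc had 1 against 779, 61.5-fold lower (95% counting interval 11.01 to 2433).

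Of 22 tested genes of hemidesmosomes, integrins and cadherins, 9 were higher and 7 lower (40.9% and 31.8%, against 25.2% and 27.4% of all tested genes; median 0.23), so that the share of lower genes was near that of all genes. Itga1, the alpha chain of a collagen and laminin receptor, was at 70.4, 85.4 and 55.6 CPM in members and 1.15, 0.433 and 0.655 CPM in basal duct cells (6.36 ± 0.31), and Itga8, a chain known from smooth muscle, differed by 3.82 ± 0.23. In the hemidesmosome, which anchors keratin filaments to laminin 332, Itga6 and Col17a1 (0.85 ± 0.14) were higher. The partner chain Itgb4 was lower, at 43.8, 51.8 and 50.4 CPM against 145, 158 and 145 CPM (−1.63 ± 0.15), as was the plakin Dst (−0.84 ± 0.12). The laminin chains Lama3 (1.76 ± 0.15) and Lamb3 (1.56 ± 0.12) were higher. Cdh1, which encodes E-cadherin, was lower (−0.88 ± 0.12), while Cdh3, which encodes P-cadherin (95.3 against 80.6 CPM), and Itgb1 (249.8 against 227 CPM) did not pass the test.

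Most listed keratins were lower, with 6 of 8 tested keratins lower (75%, against 27.4% of all tested genes) and none higher (median −1.26). Krt18, a keratin of simple epithelium, was at 208, 223 and 156 CPM in members and 2110.4, 1987 and 2238 CPM in basal duct cells (−3.46 ± 0.1, adjusted p = 9.4e-22), and its partner Krt8 differed by −1.39 ± 0.09. Krt15, a basal keratin, was at 63.2, 12.2 and 49.1 CPM against 548, 434 and 489 CPM (−3.4 ± 0.16, adjusted p = 7.2e-17). Krt7 (−1.12 ± 0.1) and Krt6a were lower too. Krt16 was called lower (−1.13), a call lost with DESeq2. The luminal keratin Krt19 did not pass the test. Krt17, at 3684, 1939 and 3173 CPM against 3029.9, 3032 and 3849 CPM, did not pass the test (adjusted p = 0.07) and overlapped between the classes. The keratins thus differed from each other: Krt14 and Krt17 stood near the basal duct level, and Krt15 and Krt18 far below it.

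Of 13 tested junction genes 2 were higher and 7 lower (15.4% and 53.8%, against 25.2% and 27.4% of all tested genes; median −1.45), and 4 were higher with library size scaling. Cldn4, a claudin of duct epithelium, was at 69, 119 and 113 CPM in members and 1333, 1225 and 1612 CPM in basal duct cells (−3.9 ± 0.12, adjusted p = 3.4e-21), and Cldn7 (−3.06 ± 0.26; −4.35 without mouse 1) and the tight junction protein Ocln (−3.65 ± 0.31) followed. The gap junction gene Gja1, which encodes connexin 43, was higher, at 161, 107 and 146 CPM against 42.7, 44.9 and 65.8 CPM (1.5 ± 0.15, adjusted p = 9.1e-10). A further connexin, Gjc1, was lower (−1.53 ± 0.32, but −0.90 and no longer called without mouse 1), so that these connexins differed in direction. Every claudin that passed the test was lower. Of these claudins, Cldn3 (−1.45) lost its call under 6 of 15 alternatives, and Cldn23 (−1.80) lost it or was not tested under 9.

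Of 19 tested transcription factors of basal and progenitor cells, 11 were called higher and 8 lower. These are 57.9% and 42.1%, against 25.2% and 27.4% of all tested genes, with a median of 0.49. The counts were 9 and 7 with DESeq2, and 10 and 7 with the hashtag share rule. Etv4 (−1.31) lost its call under 10 of 15 alternatives, among them those without each mouse, and Tfap2a (0.62) under 4. Sox10, a factor of salivary acini, intercalated ducts and myoepithelium as well as of Schwann cells (chromosome 15, 79154913 to 79164490), was at 70.4, 85.4 and 65.9 CPM in members and 0.287, 0.144 and 0.281 CPM in basal duct cells (8.04 ± 0.34, adjusted p = 5.2e-18). Of the other Schwann cell markers, S100b and Cdh19 had 0 UMIs and Mbp was lower (−1.93 ± 0.3). Trp63, the master factor of basal epithelium (chromosome 16, 25683763 to 25892088), was at 128, 183 and 128 CPM against 37.4, 41.3 and 27.8 CPM (2.01 ± 0.14, adjusted p = 2.8e-13). Id4, an inhibitor of helix-loop-helix factors, was at 419, 247 and 272 CPM against 21.9, 24.1 and 19.5 CPM (3.87 ± 0.15, adjusted p = 2.8e-19). These 3 genes were higher in all mice without overlap. Tfap2c (2.95 ± 0.15), Pitx1 (2.27 ± 0.14), Id2 (0.61 ± 0.14, call lost without the mouse block) and Runx1 (0.49 ± 0.1) were higher, and Nfib by so little (0.24 ± 0.1) that 7 alternatives lost the call, among them those without mouse 2 or mouse 3. Klf5 (−2.07 ± 0.13), Snai2 (−1.17 ± 0.14), Sox9 (−0.84 ± 0.15), Foxp1 (−0.51 ± 0.11, call lost with library size scaling) and the helix-loop-helix inhibitors Id1 (−1.61 ± 0.29) and Id3 (−1.73 ± 0.18) were lower. Members of the Id family therefore differed in opposite directions.

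In Notch signalling, ligands on 1 cell bind receptors on its neighbour, and the cleaved receptor turns on Hes and Hey genes. The 10 tested genes of this list gave 3 higher and 4 lower (30% and 40%, against 25.2% and 27.4% of all tested genes; median −0.49), the share of higher genes being near that of all genes. Among the ligands, Dll1 was at 66.1, 67.1 and 64.7 CPM in members and 10.5, 13.7 and 11.3 CPM in basal duct cells (2.52 ± 0.19, adjusted p = 4.4e-12). Jag2 was at 69.7, 60.97 and 64.7 CPM against 28.95, 33.8 and 24.99 CPM (1.22 ± 0.17, adjusted p = 4.3e-07), and Jag1 was lower (−0.7 ± 0.22), a call lost without mouse 3 (−0.29), with DESeq2, with library size scaling and without the mouse block. Maml2, a coactivator of the pathway, was higher (1.1 ± 0.21). The receptors were lower: Notch1 was at 7.19, 21.3 and 10.3 CPM against 70.02, 68.7 and 75.2 CPM (−2.8 ± 0.24, adjusted p = 7.2e-11), and Notch2 differed by −1.54 ± 0.36. The target Hes1 was at 131, 82.3 and 190.1 CPM against 1632, 1256 and 1836 CPM (−3.55 ± 0.11, adjusted p = 1.2e-21). Members were thus high in Dll1 and Jag2 and low in Notch1, Notch2 and Hes1, each without overlap in all 3 mice. Notch3 UMIs of members lay to 95.7% in the 7 cells of pericyte markers.

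The 23 tested Wnt genes gave 7 higher and 10 lower (30.4% and 43.5%, against 25.2% and 27.4% of all tested genes), with a median of −0.25, or 0.12 with library size scaling where all genes had 0.36. Ligands split, with Wnt5a higher (2.34 ± 0.21) and Wnt10a (−2.32 ± 0.2) and Wnt4 (−0.77 ± 0.18, call lost with library size scaling) lower. Among receptors, Fzd7 (4.24 ± 0.2) and Fzd8 (1.63 ± 0.32) were higher and Fzd1 (−1.58 ± 0.29), Fzd6 (−1.32 ± 0.38, call lost with the hashtag share rule) and Lgr4 (−0.8 ± 0.16) lower. The secreted inhibitors Sfrp1 and Wif1 were higher and Notum lower, with Wif1 at 92, 30.5 and 42.7 CPM in members and 0.43, 0.144 and 0.281 CPM in basal duct cells (7.5 ± 0.36). Nkd1, an inhibitor inside the cell, was at 168, 186 and 146 CPM against 4.73, 5.77 and 3.93 CPM (5.13 ± 0.16, adjusted p = 6.6e-21), and its relative Nkd2 was lower (−2.47 ± 0.47). Wif1 varied widely over mice, yet its lowest member value lay far above every basal duct value. Of the nuclear factors, Tcf7l2 was higher (1.4 ± 0.15), while Lef1 had 1 UMI in members and 908 in basal duct cells, 71.7-fold lower (95% counting interval 12.8 to 2835). Axin2, a common target of the pathway, did not pass the test (7.01 against 7.54 CPM, adjusted p = 0.79).

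**Figure D4:**
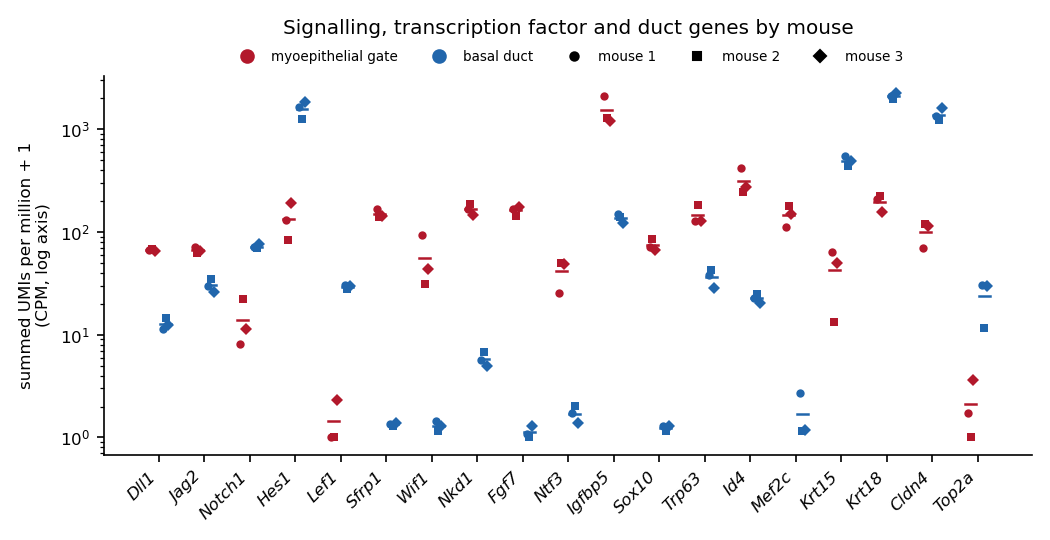
Summed UMIs in CPM plus 1 (log axis) of signalling, transcription factor and duct genes, 1 point per mouse and class, with the mean of 3 mice as a bar. Dll1, Jag2, Sfrp1, Wif1, Nkd1, Fgf7, Ntf3, Igfbp5, Sox10, Trp63, Id4 and Mef2c lie higher in members in all 3 mice, and Notch1, Hes1, Lef1, Krt15, Krt18, Cldn4 and Top2a lie lower.

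Growth factors and their binding proteins other than Igfbp2 gave 13 higher and 13 lower of 29 tested (44.8% and 44.8%, against 25.2% and 27.4% of all tested genes; median 0.23). Igfbp5, like Igfbp2 a binding protein for insulin-like growth factors, was at 2107, 1292 and 1206 CPM in members and 148, 139.952 and 121 CPM in basal duct cells (3.46 ± 0.1, adjusted p = 1.4e-21). Ntf3, which encodes neurotrophin 3, was at 24.4, 48.8 and 47.8 CPM against 0.717, 1.01 and 0.374 CPM (5.76 ± 0.37), and 3.96% of its member UMIs lay in the 7 cells of pericyte markers. The Ntf3 values did not overlap between the classes in any mouse. Pdgfa, a factor that acts on mesenchymal cells, was at 374, 479 and 369.8 CPM against 90.6, 100.4 and 83.8 CPM (2.14 ± 0.11, adjusted p = 2.9e-16). Vegfa, which acts on endothelium (1.11 ± 0.14), the neuregulin Nrg1 (1.89 ± 0.22), Igfbp6 (7.0 ± 0.39) and the receptor Egfr (0.69 ± 0.15) were higher. Igfbp7 differed by 2.9 ± 0.35 with all members and by 1.18 without the 7 cells of pericyte markers.

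The ligands of the EGF receptor did not go together. Ereg was higher, at 97.03, 15.2 and 176 CPM against 2.01, 2.597 and 4.96 CPM (5.03 ± 0.26), with a wide range over mice. Hbegf was lower, at 26.6, 88.4 and 45.3 CPM against 467, 406 and 541 CPM (−3.45 ± 0.19, adjusted p = 2.4e-15), and Areg had 0 UMIs in members, at least 6.76-fold lower. In the TGF-beta family, Tgfb2 was at 24.4, 9.14 and 34.9 CPM against 318, 309 and 342 CPM (−3.68 ± 0.17, adjusted p = 4.6e-17), and Inhba, the activin A subunit, had 1 UMI against 806, 63.6-fold lower (95% counting interval 11.4 to 2517). Bmp4 had 1 UMI in members and 317 in basal duct cells. Tgfb1 was lower (−0.88 ± 0.29; call lost without mouse 3, with DESeq2 and with library size scaling) and Tgfb3 higher (1.81 ± 0.32), so that 1 of these 5 genes went against the rest. Igfbp4 (−2.73 ± 0.17), Igfbp3 (−1.99 ± 0.26) and Fgf1 (−1.32 ± 0.28) were lower as well, so the IGF binding proteins divided into a high and a low set.

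Calcium and calmodulin genes other than Pcp4 gave 10 higher and 7 lower of 18 tested (55.6% and 38.9%, against 25.2% and 27.4% of all tested genes; median 0.61). The caveola genes Cav1 (4.31 ± 0.21), Cavin1 (1.28 ± 0.14) and Cavin3 (2.66 ± 0.14) were higher, and 9.19% of the member UMIs of Cav1 lay in the 7 cells of pericyte markers. Both parts of store-operated calcium entry, Stim1 (1.46 ± 0.22) and the channel Orai1 (2.63 ± 0.31), were higher. The S100 proteins divided, with S100a4 higher (2.88 ± 0.3) and S100a10 (−1.26 ± 0.07) and S100a11 (−0.94 ± 0.07) lower. S100a6 was called higher (0.33 ± 0.08), but not without mouse 1 (0.16), with DESeq2 or without the mouse block. The annexins Anxa1 (−1.46 ± 0.11), Anxa2 (−1.64 ± 0.11) and Anxa3 (−3.1 ± 0.19) and the kinase Camk2d (−1.49 ± 0.17) were lower, while Camk2g was higher (1.39 ± 0.24).

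Immediate-early genes, which are switched on within minutes of a stimulus and also by tissue dissociation, gave 13 higher and 5 lower of 18 (72.2% and 27.8%, against 25.2% and 27.4% of all tested genes; median 1.09). Fos was at 3678, 6523 and 4759.98 CPM in members and 379, 532 and 245 CPM in basal duct cells (3.72 ± 0.11, adjusted p = 1.2e-21). Junb (1.92 ± 0.07), Jund (1.42 ± 0.07), Jun (0.86 ± 0.07), Egr1 (2.39 ± 0.1), Fosb (2.73 ± 0.09) and Nr4a1 (3.15 ± 0.11) were higher. Myc (−1.75 ± 0.12), Fosl1 (−1.64 ± 0.13), Fosl2 (−1.05 ± 0.16) and Klf6 (−0.83 ± 0.08) were lower, and Dusp1 was called lower at −0.38 ± 0.12 but was near 0 with library size scaling and lost its call under 6 of 15 alternatives, among them those without mouse 1 and without mouse 3. Of 14 heat shock genes 8 were higher and 3 lower (57.1% and 21.4%, against 25.2% and 27.4% of all tested genes; median 0.62). Hspa1a, an inducible chaperone, was at 703, 918 and 1539 CPM against 62.3, 110.1 and 114 CPM (3.45 ± 0.11). Hspb1 (1.69 ± 0.11), Hspa8 (0.54 ± 0.07), Cryab (2.33 ± 0.15) and Hspb6 (3.02 ± 0.37) were higher, the small chaperones Hspb1, Cryab and Hspb6 being also part of resting muscle. Hsp90ab1 (−1.03 ± 0.06) and the mitochondrial chaperones Hspd1 (−1.29 ± 0.12) and Hspe1 (−1.16 ± 0.1) were lower. Both classes went through the same 2 hour enzyme digestion, and the part of dissociation in these values was not tested.

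Cell division was the only one of the 20 lists of which every tested gene was lower, with 16 of 16 tested genes lower in members where 27.4% of all tested genes were (median −3.35, or −3.24 with the genes at 0 set to their bound). Top2a, the topoisomerase of dividing cells, had 3 UMIs in members and 790 in basal duct cells, 20.8-fold lower (95% counting interval 7.09 to 101). Ube2c had 0 UMIs against 1062, at least 27.95-fold lower, and Ccnb1 had 0 against 264, at least 6.95-fold lower. Mki67, the antigen used to stain cycling cells, had 4 UMIs against 461. Genes that are also read in resting cells differed less, with Hmgb2 at 126, 134 and 156 CPM against 540, 517 and 617 CPM (−2.02 ± 0.11), Stmn1 at −1.46 ± 0.12 and Pcna at −1.11 ± 0.15; the replication helicase gene Mcm6 differed by −3.42 ± 0.4 (−2.66 without mouse 1 and −4.88 without mouse 3). With library size scaling 15 of the 16 were lower.

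Oxidative phosphorylation depended on the scaling. Of 23 tested subunits none was higher and 13 (56.5%, against 27.4% of all tested genes) were lower (median −0.41) with TMM, but 8 were higher and 7 lower (median −0.029, with all genes at 0.36) with library size scaling. Atp5b, a subunit of ATP synthase, was at 494, 472 and 509 CPM in members and 945, 926 and 941 CPM in basal duct cells (−0.93 ± 0.08, adjusted p = 1.8e-10), Atp5a1 differed by −0.62 ± 0.1, Cox4i1 by −0.63 ± 0.08 and Cox7a2 by −0.42 ± 0.09, the last no longer past the threshold with library size scaling.

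Class II antigen presentation gave 3 lower (50%, against 27.4% of all tested genes) and none higher of 6 (median −1.30). Cd74, the invariant chain, was at 20.1, 143 and 10.3 CPM in members and 279, 256 and 268 CPM in basal duct cells (−2.86 ± 0.31), and mouse 2 stood above the other two among members. The value was −4.08 without mouse 2 and −2.27 without mouse 1. H2-Ab1 (−3.23 ± 0.38; −4.30 without mouse 2) and H2-Aa (−1.68 ± 0.48; −2.30 without mouse 1) were lower too. Genes of axon guidance and neural adhesion gave 6 higher and 5 lower of 17 (35.3% and 29.4%, against 25.2% and 27.4% of all tested genes; median 0.27), shares near those of all genes. Sema5a, a semaphorin, was at 109, 165 and 113 CPM against 1.79, 1.73 and 1.03 CPM (6.31 ± 0.22), and the adhesion molecule Ncam1 was at 85.5, 42.7 and 51.7 CPM against 1.22, 0.577 and 0.936 CPM (6.0 ± 0.29). Sema3c (2.3 ± 0.16) and the semaphorin receptor Nrp2 (1.86 ± 0.25) were higher, while the ephrin Efnb2 (−2.51 ± 0.2), the receptors Robo1 (−1.27 ± 0.22) and Robo2 and their ligand Slit2 (−1.71 ± 0.29) were lower. Slit3, a second Robo ligand, was higher (2.14 ± 0.43).

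Secreted epithelial products gave 4 higher and 4 lower of 10 (40% each, against 25.2% and 27.4% of all tested genes; median −0.17, or 0.20 with library size scaling). Apoe, the lipid carrier, was at 13294, 13321 and 12842 CPM in members and 1333, 1480.2 and 1529.6 CPM in basal duct cells (3.19 ± 0.06, adjusted p = 7.3e-27), with little spread over mice in either class. Lcn2, an iron-binding lipocalin of innate defence, was at 497, 429.8 and 371 CPM against 23.6, 30.01 and 29.02 CPM (3.99 ± 0.13, adjusted p = 2.2e-20). The protease inhibitor Cst3 (1.2 ± 0.11) and Csn3, the kappa-casein gene known from milk (3.44 ± 0.41), were higher, and Wfdc2, the protease inhibitor Slpi (−3.39 ± 0.52) and Mgp (−1.35 ± 0.19) were lower.

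**Figure D5:**
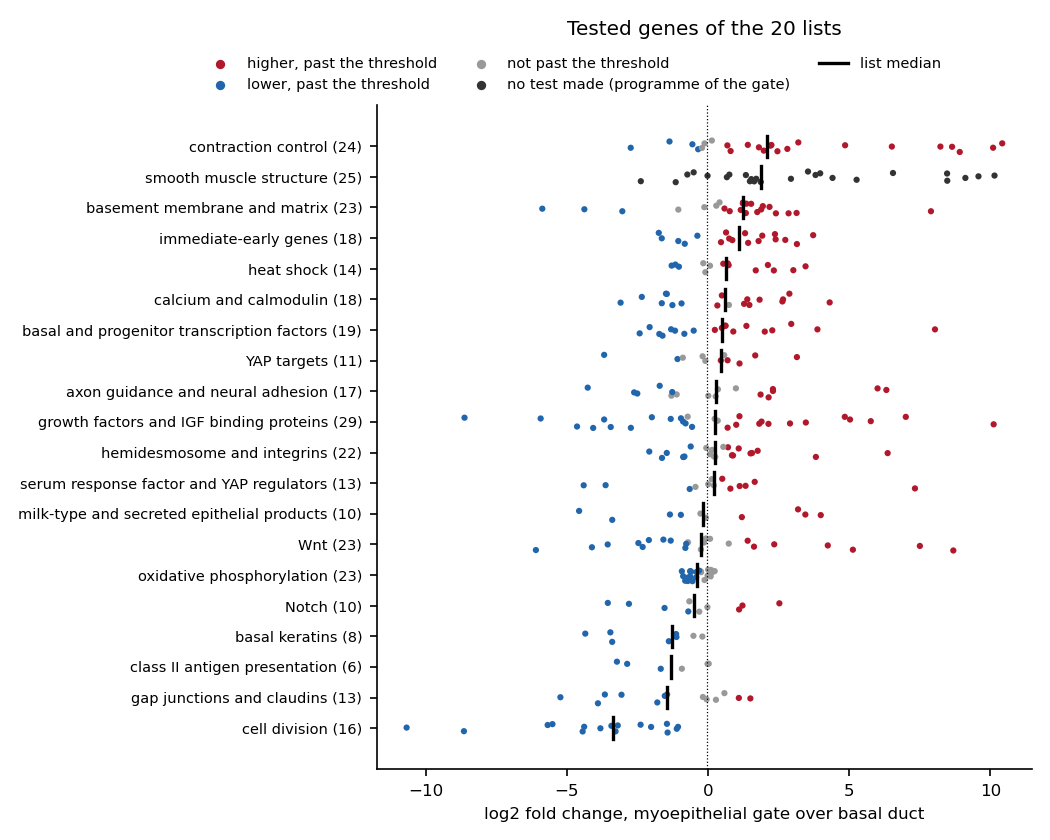
Log2 fold change (horizontal) of each tested gene in the 20 gene lists, with list medians as black bars, the number of tested genes in brackets (Pcp4 and Igfbp2 left out) and a dotted line at the median of all genes (−0.021). Contraction control has the highest median (2.09) and cell division the lowest (−3.35); oxidative phosphorylation goes from 0 higher and 13 lower to 8 higher and 7 lower with library size scaling.

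The members also varied among themselves. Per 10000 UMIs of a cell, Acta2 ranged from 28.3 at the 10th percentile to 159 at the 90th, a 5.63-fold range. Apoe (3.35-fold) and Sparc (3.65-fold) varied less, while Tagln (21.2-fold), Krt17 (21.7-fold) and Fos (38.5-fold, from 3.08 to 118) varied more. Over the 248 cells, on log2 values, the genes outside the gates most like Acta2 were Tpm2 (r = 0.73), Myl6 (0.73), Myl9 (0.67), the actin-severing protein Dstn (0.59), Csrp1 (0.57), the creatine kinase Ckb (0.5), Sparc (0.48) and Postn (0.46). They were ranked among 3422 genes with a UMI in at least 30% of the members, whose median r was −0.006, and the cells share 1 library and differ in depth. Krt14 had r = −0.03 with Acta2 and Epcam r = −0.43. Pcp4 had r = 0.39, or 0.52 without the 7 cells of pericyte markers.

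Shares of cells with a UMI were compared after thinning each cell to 5000 UMIs, which kept 236 members, 3093 basal duct cells and 25 endothelial cells and left out 12, 61 and 109 shallower ones. Pcp4 was found in 95.3% of members, 0.582% of basal duct cells and 0% of endothelial cells, which should lack it, and in 95.97% of members unthinned. The shares with an Igfbp2 UMI were 93.6%, 18.5% and 4%. Fgf7 was found in 56.4% of members, 0.09699% of basal duct cells and none of the 25 endothelial cells. Nearly all members thus had both markers, and Fgf7 was found in most of them. A count of 0 in 25 cells allows a share of up to 12%. The Trp63 shares were 51.7%, 14.1% and 0%, and those of Sox10 30.5%, 0.162% and 0% (46.4% of members unthinned). Krt18 was found in 22.5% of members, 95.2% of basal duct cells and 20% of the 25 endothelial cells. With 2500 UMIs kept per cell, which leaves 102 endothelial cells, the Krt18 shares were 16.9%, 88.7% and 9.804%. Epcam was found in 74.6%, 98.7% and 20%. The endothelial cells held a median of 3383 UMIs before thinning.

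Few cells of the whole-epithelium libraries passed the same rule. They were 4 of 4093 passing cells in the untreated library (0.0977%, exact 95% interval 0.0266 to 0.250%), of which 3 belonged to mouse 2 and 1 had no call. In the irradiated library they were 8 of 2629 (0.304%, interval 0.131 to 0.599%), of which 1, 3 and 0 belonged to its mice 1, 2 and 3 and 4 had no call. The intervals overlap and cover counting error only, each library is 1 pool, and no test between them was made. The rule sets fixed UMI limits, and passing cells held a median of 12921 UMIs in the untreated and 19488 in the irradiated library. No cell of either library had 10 pericyte-marker UMIs. The 4 untreated cells held 10 to 182 Krt14 UMIs and 10 to 33 Pcp4 UMIs each, and the 8 irradiated cells 1 to 69 (median 11) and 0 to 17 (median 3.5). The CPM that follow were pooled over all cells of a library that passed the rule, without TMM factors. By this measure the members of the basal sort stood at 1836 CPM for Pcp4 and 1243 CPM for Igfbp2. Pcp4 stood at 3087 CPM (95% Poisson interval 2495 to 3778) over the untreated cells and at 382 CPM (95% Poisson interval 282 to 505) over the irradiated ones. Igfbp2 stood at 1314 CPM (95% Poisson interval 939 to 1789) and 2704 CPM (95% Poisson interval 2427 to 3004). These intervals cover counting error only, and 2 of the 8 irradiated cells, with 17 and 15 UMIs, held most of their 49 Pcp4 UMIs, so that no direction between the libraries is read from these values. A Sox10 UMI was found in 7 of the 8 irradiated cells.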

How the data were processed

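Counts of UMIs per gene and cell, and of hashtag UMIs, were used as deposited. They were made with Cell Ranger 6.1.2 on mm10, per the submitters' processing notes, from 10x 3′ libraries. Members and gene lists were chosen with earlier results of these data known. Hashtags were called with HTODemux (Seurat 5.3.0, quantile 0.99, 5 starting clusters, a setting chosen in that earlier work), and doublets and cells without a call were left out of sums. UMIs were summed per mouse and class and tested with edgeR 4.0.16 (R 4.3.3; filterByExpr, TMM, quasi-likelihood, mouse as block, Benjamini-Hochberg, threshold 0.05), without the 7 gate genes. The script was tested on simulated counts. Both classes come from the same animals. Deviations of the 2 classes from their means correlated at 0.14, 0.13 and 0.20 within mice 1, 2 and 3 over 4753 genes. Named genes are the 12 of largest change per direction (mean of at least 20 CPM, no overlap) and up to 4 of highest CPM per list; other list members were named after their values were seen. DESeq2 1.42.0, library size scaling, no count filter, no block, other hashtag and gate limits, doublet removal with Scrublet in scanpy 1.11.5 and leaving out each mouse were alternatives. Intervals cover counting error only. Coordinates and promoters come from RefSeq GRCm38.p6. Some genes are not reported here.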

Additional observations from a re-analysis of the deposited data

Results flagged for a closer look

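Cells passing the myoepithelial rule were counted in the irradiated whole-epithelium library, which the test between classes does not use, at 0.304% of its passing cells (8 of 2629), above the 0.0977% (4 of 4093) of the untreated whole-epithelium library that served as control. The exact 95% intervals, 0.131 to 0.599% and 0.0266 to 0.250%, overlap, and the difference was not tested. The rule sets fixed UMI limits, and the cells that passed it held a median of 17112 UMIs in the irradiated and 9162.5 in the untreated library. Their median Tagln count was 2 UMIs in the irradiated and 29 in the untreated library. The part of depth in the 2 shares was not tested.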

How the results depend on the processing

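Lost calls are listed in this paragraph for the genes named by rule (largest changes and highest CPM per list). Other list genes lost calls too, as given with their values above. Scaling by library size in place of TMM gave 4153 genes higher and 1875 lower instead of 2759 and 3000. Library size scaling also turned Rock2 from −0.35 to 0.028, and Cox7a2, Foxp1 and Mef2d lost their calls. It was the only setting run that moved a count over all genes by over 1.5 times. Among list counts, the lower genes of contraction control went from 4 to 2 with DESeq2 and without mouse 3 and to 1 with library size scaling, the higher YAP targets from 5 to 3 with the hashtag share rule, and the higher junction genes from 2 to 4 with library size scaling; in oxidative phosphorylation 1 gene was higher without mouse 2 where none was with all mice. Without the replicate block (mouse) the counts were 2713 and 2898. Of the genes named by rule, only Nfib and S100a6 lost their calls without this paired mouse term. Among the other list genes given above, Jag1, Id2, Kcnma1, Dusp1 and Cldn23 lost theirs as well. DESeq2 gave 1875 and 2223, with Nfib, S100a6 and Thbs1 lost, and the hashtag share rule 2309 and 2526, with Mef2d, Nfib, Thbs1 and Yap1 lost. Leaving out each mouse gave 2011 to 2673 higher and 2299 to 3090 lower, without mouse 1 the fewest. Without the 7 members of pericyte markers, an alternative chosen after seeing the data, 2767 were higher and 3071 lower, of which 2692 and 2972 were also called with them. Members were 5.34% of singlets with the hashtag share rule and 5.87 to 6.47% with the other gates and filters, against 6.19%. Thinned to 2500 UMIs in place of 5000, the share of members with a UMI was 91.8% for Pcp4, 83.5% for Igfbp2, 51.9% for Epcam, 18.5% for Sox10, 32.5% for Fgf7 and 16.9% for Krt18 (9.80% of endothelial cells), as fewer molecules per cell must give. Genes with under 4 UMIs in a class are limited by depth, and mouse 2 gave only 28 members.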
